A study of Mus musculus with 3 samples.

Results

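Intergenic H3K27ac regions with no assigned gene were taken from the deposited table of a chromatin immunoprecipitation (ChIP-seq) study of acetylated lysine 27 of histone H3 in mouse myeloid-derived suppressor cells (MDSC). A region belonged to the set where the table counts no gene, no promoter and no CpG island for it. This rule used annotation and no measured signal, and it took 2647 of the 22399 regions (11.8%). Of the 2816 regions with no gene, the 169 that hold a CpG island were not included. There were 3 libraries. The inhibitor library came from MDSC of mice given 25 mg/kg GNE-781, an inhibitor of the bromodomain of the acetyltransferases CBP and EP300, by mouth 2 times a day for 7 days. The vehicle library came from mice given the carrier, named MCT, on the same schedule, and the third library was a pooled input without a column in the table. All mice were female SCID.beige animals of 6 to 8 weeks that carried a subcutaneous tumour grown from injected cells. The labels name the lines MDA.MB.231-X1.1, of human breast origin, and CT26, a mouse colon carcinoma, and the titles of both ChIP libraries carry the tag tnbc. SCID.beige mice lack T and B cells and have defective NK cells, so the cells come from a tumour without adaptive immunity. The sort kept cells positive for CD45, CD11b and Ly6C, with or without Ly6G, and negative for F4/80. How many mice were pooled in a library is not given in the labels.

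Enhancers are stretches of DNA that raise transcription of genes at a distance, and many lie between genes. Active enhancers and promoters carry H3K27ac, most of which is written by CBP and EP300, and the bromodomain of these enzymes binds acetylated lysine. In myeloid cells, distal enhancers are opened by PU.1, C/EBP, AP-1 and RUNX factors and drive genes of identity and inflammation. A region far from a gene can serve any gene in its neighbourhood, so a neighbouring gene named here is a position and not a target.

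For each region the table holds an average and a peak of the fragment pileup per library, called signal here, and marks the libraries in which an interval was called. Each treatment has 1 library and no replicates, hence no test was possible and all differences describe these libraries only. The number of fragments behind a value is unknown. Differences are log2(inhibitor signal + 1) minus log2(vehicle signal + 1), so a negative value means a lower signal with inhibitor. Of the myeloid markers checked, 7 of 8 had a region in the whole table, Ly6c1 being the exception, and Adgre1, the gene of F4/80, had none. Of the other lineages, 4 of 5 macrophage markers had a region (Mertk and the C1q genes), as did 2 of 6 T, B and NK cell markers (Cd3g and Cd79a). Among stromal, endothelial and epithelial markers 3 of 8 had one (Kdr, Pecam1 and Krt8). In sorted bulk cells a smaller share of cells with a mark and less of the mark per cell cannot be told apart.

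Although the deposited annotation assigns them no gene, 144 of the 2647 regions hold the first base of a gene in RefSeq (GRCm38), counting the 2575 regions on chromosomes with starts in that table. These starts belong to 143 genes, 133 of them long noncoding RNA genes and 10 protein-coding. The 300 bases from 250 before the start are printed for 5 long noncoding RNA genes, as RefSeq gives them. Gm42376 begins in the strongest intergenic region (chr7:30394806-30395105, minus strand). Gm40645 begins in the region with the lowest log2 difference of average signal, computed with a pseudocount of 1 (chr10:51526214-51526513, minus strand). Gm36496, Gm35413 and Ptgs2os2 begin in strong regions within 100 kb of Id2 (chr12:25190795-25191094, minus strand), Klf6 (chr13:5803106-5803405, minus strand) and Ptgs2 (chr1:150164899-150165198, minus strand). Capitals mark matches to the letters GAGGAAG (PU.1), TTGCNNAA (C/EBP), TGANTCA (AP-1) or TGTGGTTT (RUNX) on either strand. The windows of Gm42376 and Ptgs2os2 each hold 1 C/EBP match, that of Gm40645 holds 1 AP-1 match, and those of Gm36496 and Gm35413 hold none, so no matches overlap. The region of Gm42376 ends at chr7:30394931, inside its window, and the C/EBP match of Gm42376 lies beyond that end, outside the H3K27ac region.
Gm42376: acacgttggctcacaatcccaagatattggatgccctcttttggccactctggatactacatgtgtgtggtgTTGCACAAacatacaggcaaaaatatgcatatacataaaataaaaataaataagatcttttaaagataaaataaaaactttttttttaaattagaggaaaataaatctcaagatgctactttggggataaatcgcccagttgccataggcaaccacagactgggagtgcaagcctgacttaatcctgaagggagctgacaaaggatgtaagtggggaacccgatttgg
Gm40645: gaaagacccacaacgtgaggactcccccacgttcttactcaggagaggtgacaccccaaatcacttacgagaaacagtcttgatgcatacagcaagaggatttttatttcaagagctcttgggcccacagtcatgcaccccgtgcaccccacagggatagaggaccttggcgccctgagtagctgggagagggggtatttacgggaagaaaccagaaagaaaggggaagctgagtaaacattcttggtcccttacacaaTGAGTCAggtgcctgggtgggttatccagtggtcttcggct
Gm36496: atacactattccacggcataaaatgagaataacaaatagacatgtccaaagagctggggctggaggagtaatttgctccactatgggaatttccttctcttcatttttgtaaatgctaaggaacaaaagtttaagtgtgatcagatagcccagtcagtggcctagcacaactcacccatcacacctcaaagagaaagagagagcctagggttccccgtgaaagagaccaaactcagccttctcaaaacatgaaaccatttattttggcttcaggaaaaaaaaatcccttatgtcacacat
Gm35413: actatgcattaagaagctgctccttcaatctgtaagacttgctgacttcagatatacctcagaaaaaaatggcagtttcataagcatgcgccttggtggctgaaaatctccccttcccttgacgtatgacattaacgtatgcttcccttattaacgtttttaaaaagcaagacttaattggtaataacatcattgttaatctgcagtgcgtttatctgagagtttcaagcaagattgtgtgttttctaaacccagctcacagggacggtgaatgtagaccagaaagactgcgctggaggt
Ptgs2os2: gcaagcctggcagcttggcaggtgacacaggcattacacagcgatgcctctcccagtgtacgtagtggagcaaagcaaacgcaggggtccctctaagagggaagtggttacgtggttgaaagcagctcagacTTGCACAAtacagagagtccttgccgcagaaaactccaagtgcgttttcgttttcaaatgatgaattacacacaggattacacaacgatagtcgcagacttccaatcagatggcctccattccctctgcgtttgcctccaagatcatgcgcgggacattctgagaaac
Over the windows of all 143 genes, the PU.1 letters were found in 32 (22.4%), against 13.6% of 9533 long noncoding RNA gene windows and 13.5% of all 27025 gene windows of the table. The C/EBP letters stood in 12.6%, against 11.9% and 10.8%, the AP-1 letters in 11.2%, against 9.49% and 7.93%, and the RUNX letters in 3.50%, against 2.18% and 1.86%. A match is a string of letters and not a measured binding site. A window can also reach beyond the H3K27ac region, as that of Gm42376 does.

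The region of Gm42376 (chr7:30392256-30394931) had an average signal of 10.9 with inhibitor and 58.2 with vehicle, a log2 difference of -2.32. It is the highest vehicle signal of the set, and an interval was still called there with inhibitor. The region of Gm40645 (chr10:51526099-51527569) had 3.24 with inhibitor and 26.0 with vehicle (-2.67), and no interval was called with inhibitor. The region of Gm36496 had 6.37 and 26.8 (-1.91), that of Gm35413 had 7.55 and 25.3 (-1.62), and that of Ptgs2os2 had 6.41 and 24.2 (-1.77), with inhibitor first in each pair. All 144 regions with a RefSeq start inside had a lower signal with inhibitor, where 0.33% of all regions in the table had a higher one. Of the 144, 138 (95.8%) were at least 2-fold lower, against 93.4% of all regions. Their median difference was -1.69 (4.40 with inhibitor, 15.4 with vehicle), and that of the other 2503 was -1.59 (3.98 and 12.8). Within 5 classes of vehicle signal the gap between them was -0.023.

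H3K27ac was lower with inhibitor at nearly every intergenic region. An interval was called with vehicle in 2631 of the 2647, and in 2533 with vehicle alone. Those 2533 entered the table through that call, so their vehicle signal was part of their selection. Such a selection favours a lower signal with inhibitor. The median signal was 4.0 with inhibitor (quartiles 3.21 and 4.86) and 12.9 with vehicle (quartiles 11.5 and 15.6), and the ranges were 1.17 to 13.4 and 1.33 to 58.2. Intergenic regions had a median log2 difference of -1.59 (quartiles -1.82 and -1.34), which without a pseudocount is a 3.54-fold lower signal. Of the 2647 regions, 2479 (93.7%) were at least 2-fold lower, against 93.4% of all regions in the table. Signal was higher with inhibitor in 15 of the 2647, against 74 of all 22399 regions (0.33%). The median peak signal was 8 with inhibitor and 24 with vehicle. Whether the values include a scaling by the Drosophila spike-in is not known. A constant factor between the libraries would move every difference in the same direction. Because of the pseudocount, it would move differences by less where signal is weak.

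**Figure D1:**
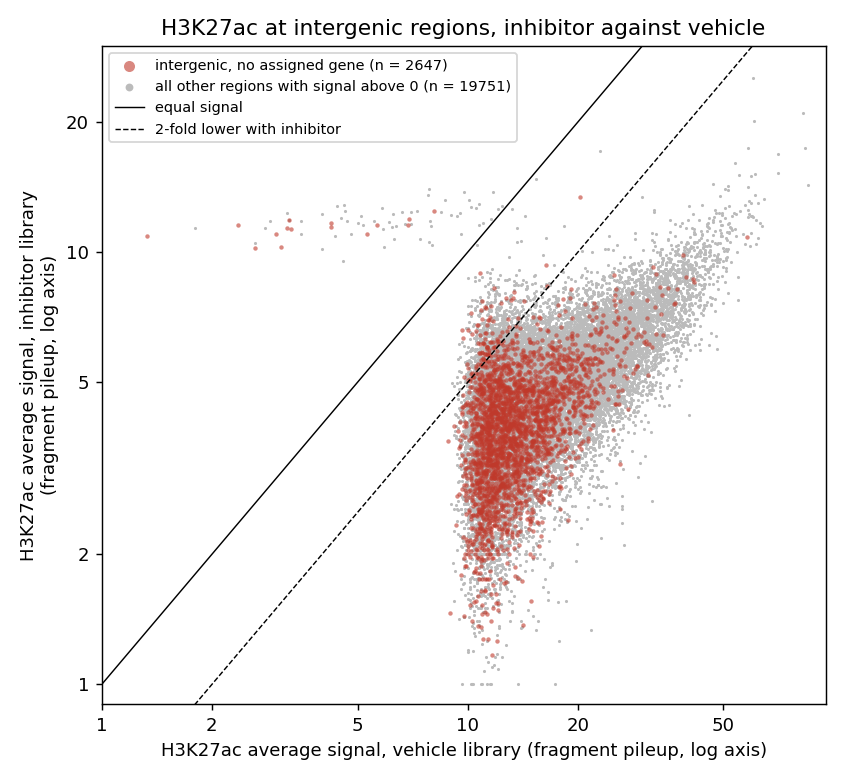
Average H3K27ac signal of each region with inhibitor (vertical axis) against vehicle (horizontal axis), both on log axes, for the 2647 intergenic regions (red) and the other regions (grey), with lines of equal and of 2-fold lower signal. Most red points lie below the 2-fold line at vehicle signals near the median of 12.9, and the small group above the line of equal signal holds the 15 regions with a higher signal.

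Intergenic regions were weaker and shorter than the remaining 19752 regions of the table. Their median signal was 4.0 against 4.77 elsewhere in the inhibitor library and 12.9 against 14.9 in the vehicle library. Their median length was 1232 bp against 1442 bp. The median log2 differences were close, -1.59 for intergenic regions and -1.61 for all others, a gap of 0.021. Among distal regions without a CpG island, the 6479 inside genes had a median of -1.48 (4.30 with inhibitor, 12.8 with vehicle) and the 1067 beside genes -1.54 (4.20 and 12.9). The 11629 promoter regions had -1.71 (5.11 and 17.7). Vehicle signal was thus nearly equal in the 3 distal groups, while inhibitor signal was lowest in the intergenic group.

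At like vehicle signal, intergenic regions had the lower inhibitor signal across most of the range. All regions were put in 10 equal classes of vehicle signal, and the intergenic median was below that of all other regions in 9 of them, by up to 0.15. The exception was the ninth class, where it was 0.019 above. Weighted by the number of intergenic regions, the gap was -0.10. It was -0.10 against regions inside genes, with all 10 classes lower, -0.11 against promoters and -0.051 against regions beside genes. In the fifth class, with vehicle signals between 13.4 and 14.5, the intergenic median was 3.88 with inhibitor against 4.37 for the others. The gap depends on what regions are matched on. It was -0.076 in classes of the mean signal and 0.00023 in classes of length, and with classes of inhibitor signal it was 0.088, the opposite sign. With signal and length classes together it was -0.10. Regions are not replicates, so these gaps carry no error of the treatment.

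An interval was called with inhibitor in 114 intergenic regions (4.31%, exact 95% binomial interval 3.57 to 5.15, which covers counting only), against 10.3% of all regions. The share was 3.69% inside genes, 5.06% beside genes and 15.6% at promoters. The share of all other regions, weighted to the intergenic classes of vehicle signal, was 3.77%. Regions are not replicates, so the interval cannot decide whether these shares differ. The order varied by class. In classes 2, 3, 5 and 6 the intergenic share was the lower one, as with 0 against 1.15% in class 5 and 0.338% against 1.34% in class 6. In classes 8, 9 and 10, 14.7%, 29.6% and 61.4% of intergenic regions were called, against 9.08%, 22.4% and 59.3% of the others. Regions inside genes had 12.4%, 33.2% and 65.1% in these 3 classes. Those top classes hold 170, 98 and 44 intergenic regions.

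**Figure D2:**
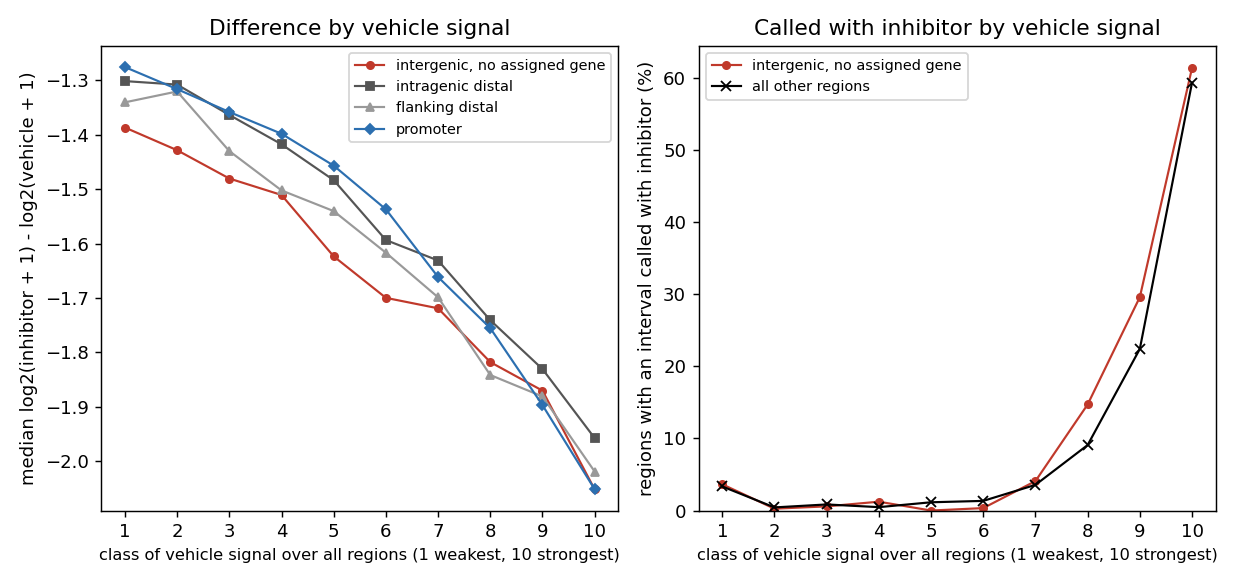
Left, median log2 difference (inhibitor over vehicle) by class of vehicle signal for intergenic regions, regions inside genes, regions beside genes and promoters; right, percent of regions with an interval called with inhibitor for intergenic and all other regions. The intergenic line is the lowest of the 4 through the seventh class and meets the promoter line in class 10, and the called share of intergenic regions is at most 4.08% in classes 1 to 7 and 61.4% in class 10.

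Distance from a gene had little bearing on the difference. The table assigns a gene out to about 10 kb, since 99.9% of regions beside a single gene lay within 10 kb of it in GRCm38. The median gap from an intergenic region to the nearest RefSeq protein-coding gene was 28154 bp (quartiles 14649 and 62633 bp). Regions 10 to 15 kb away, just outside that reach, had a median difference of -1.58 (4.08 with inhibitor, 13.0 with vehicle, 438 regions), and regions beside genes at 5 to 10 kb had -1.55 (4.04 and 12.9, 394 regions). Between 10 and 25 kb the median was -1.59 (964 regions), and between 100 and 250 kb it was -1.62 (373 regions). The 50 regions more than 250 kb away had -1.63, with 3.78 and 11.9. Within 5 classes of vehicle signal, regions at least 100 kb away differed from those within 25 kb by -0.041, lower in 3 of the 5.

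**Figure D3:**
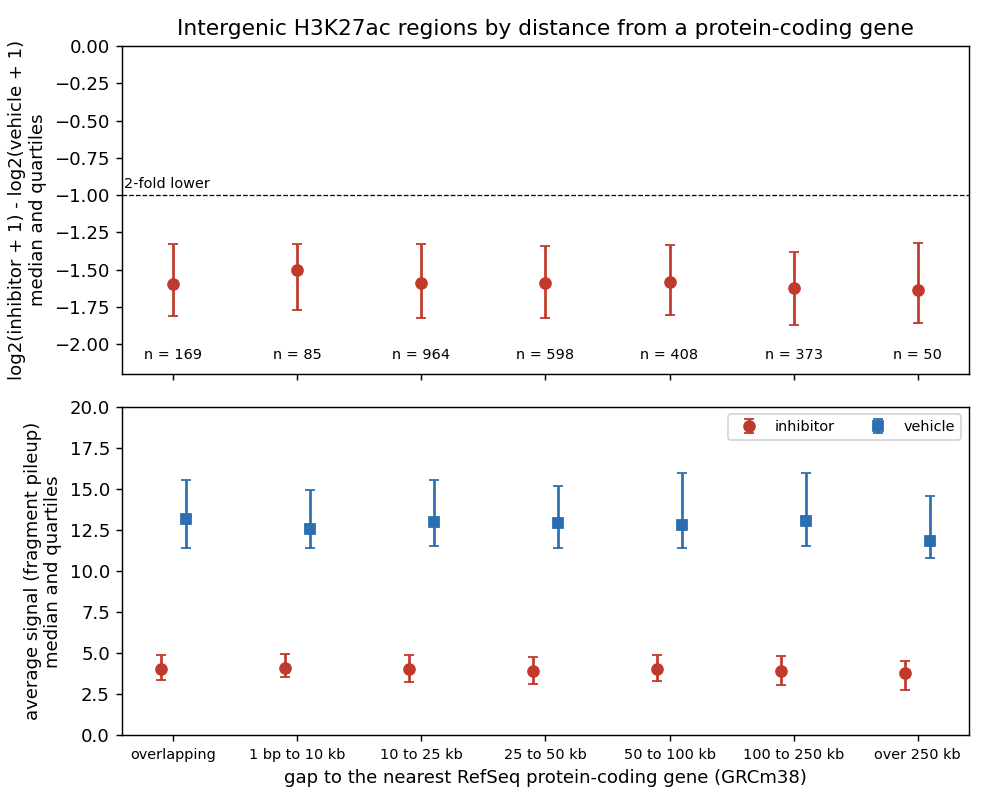
Upper panel, log2 difference (inhibitor over vehicle) of intergenic regions by gap to the nearest RefSeq protein-coding gene, as median and quartiles; lower panel, average signal with inhibitor and with vehicle. Medians lie between -1.63 and -1.50 in all 7 bins, with inhibitor signal near 4 and vehicle signal near 13.

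The newer annotation places a gene over some of these regions. Of the 2647, 169 (6.38%) overlap a RefSeq protein-coding gene, 665 (25.1%) a long noncoding RNA gene without a protein-coding one, 35 another gene or pseudogene, and 1778 (67.2%) no gene. The median differences of these groups were -1.59, -1.61, -1.61 and -1.58. The inhibitor medians were 4.07, 4.08, 4.17 and 3.97 and the vehicle medians 13.2, 13.3, 13.8 and 12.7. Long regions had the larger differences and also the higher vehicle signal. In 4 equal classes of length, from shortest to longest, the median differences were -1.49, -1.49, -1.58 and -1.73. The vehicle medians of these classes were 11.3, 12.3, 13.5 and 17.0, so length and vehicle signal were not told apart here. Of the shortest class, up to 895 bp, 85.6% were at least 2-fold lower, and of the longest, from 2027 bp, 99.5%. In the same order 2.72%, 0.906%, 2.11% and 11.5% were called with inhibitor. Of the 18 called in the shortest class, 16 were called with inhibitor alone.

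The 10 strongest intergenic regions with vehicle lay between -2.32 and -1.87, and 9 of them were still called with inhibitor. All lie in class 10 of vehicle signal, where 61.4% of intergenic regions and 59.3% of the others were called. Calls with inhibitor at such vehicle signals are thus not particular to intergenic regions. After the region of Gm42376, which lies 18851 bp from Tyrobp, the gene of a signalling adaptor of myeloid receptors, came a 17324 bp region 60866 bp from Cebpb. Cebpb encodes C/EBP-beta, a factor of emergency granulopoiesis and of MDSC. This region (chr2:167751298-167768622) had 8.52 with inhibitor and 41.6 with vehicle (-2.16, but -1.50 by peak signal, 44 against 126). A region 53538 bp from Ola1 (chr2:73036872-73039263) had 8.67 with inhibitor and 41.1 with vehicle (-2.12), and a region in the current span of Arhgap23 (chr11:97434301-97438352) had 8.77 and 39.6 (-2.05). A region 12818 bp from Cyth1, which encodes an activator of ARF GTPases (chr11:118143778-118151352), had 9.87 with inhibitor and 38.7 with vehicle (-1.87). Further ones were nearest to Tomm20, at 120898 bp (8.23 and 37.2, -2.05), Ache (7.57 and 36.6, -2.13) and Rap1b (6.42 and 34.1, -2.24). Another lay in the current span of Nek6 (8.29 and 35.2, -1.96). The region near Ache is the one of the 10 with no call with inhibitor.

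Intergenic regions often lay in groups. Joined where the gap was at most 12.5 kb, they formed 1526 stretches, of which 966 held a single region and 87 held at least 5. Single regions had a median difference of -1.55 (4.0 with inhibitor, 12.5 with vehicle) and those in stretches of at least 5 had -1.61 (4.09 and 13.3). By summed vehicle signal times length the largest stretch was the one downstream of Cebpb, 9 regions over 60286 bp (chr2:167708336-167768622). Its mean signal per base was 6.47 with inhibitor and 28.0 with vehicle (-1.96). The second lay 101708 bp from Tomm20 (chr8:126787323-126828956), with 7 regions and means of 6.35 and 25.9 (-1.87). The third lay 14061 bp from Incenp (chr19:9913550-9957276), with 8 regions and 4.31 and 18.4 (-1.87). The fourth lay 20755 bp from Ier5 (chr1:155048988-155075612), with 8 regions and 4.82 and 18.3 (-1.73), none of them called with inhibitor. The fifth lay 62050 bp from Zfp36l2, which encodes a factor of mRNA decay (chr17:84105241-84121874), with 4 regions and 6.68 and 22.8 (-1.63).

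Within the stretch downstream of Cebpb the regions differed from each other. The region 38455 bp from the Cebpb start (chr2:167726906-167727835) had 7.69 with inhibitor and 10.9 with vehicle (-0.46), the smallest difference of the stretch. Its neighbour at 26873 bp (chr2:167713191-167718386) had 3.86 with inhibitor and 18.5 with vehicle (-2.00). The regions at 20191 bp and 21923 bp had 4.94 and 5.20 with inhibitor and 11.3 and 15.3 with vehicle (-1.05 and -1.39). From 50768 to 59239 bp, 4 regions had between 3.08 and 6.02 with inhibitor and between 13.6 and 21.9 with vehicle, with differences of -1.68, -2.05, -1.84 and -1.37. The 17324 bp region beyond them was alone in being called with inhibitor. The promoter regions on either side of the Cebpb start stood at -2.00 (6.54 and 29.2) and -1.89 (6.09 and 25.2), so the difference at the start lies inside the range of the intergenic ones.

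**Figure D4:**
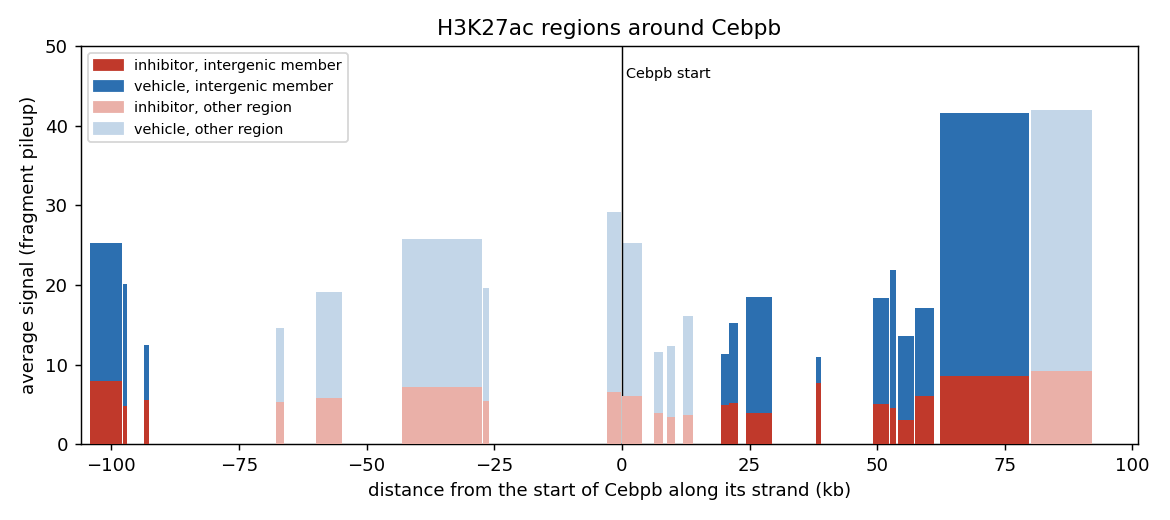
Average H3K27ac signal with inhibitor (red) and vehicle (blue) of every region around the start of Cebpb, drawn to scale by distance along the gene's strand, with intergenic regions in full colour and other regions in pale colour. Most of the intergenic regions lie from about 20 to 80 kb downstream, with a few near the left edge, and the widest reaches 41.6 with vehicle and 8.52 with inhibitor.

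Many genes of myeloid transcription factors had intergenic regions nearby. Of the 31 such genes with a RefSeq start in the table used, 21 (67.7%) had at least 1 intergenic region within 100 kb, against 12.4% of 17492 protein-coding genes. Among genes with an H3K27ac region over their start the count was 18 of 25, against 18.1% of 7370. The list was chosen with earlier results of these data known, so these shares are a description. The 94 regions near these genes had a median difference of -1.58 (4.29 with inhibitor, 13.7 with vehicle), against -1.59 over all intergenic regions. Of the 94, 88 were at least 2-fold lower and 5 were called with inhibitor, beside shares of 93.7% and 4.31% over all intergenic regions. The AP-1 gene Fos had 14 regions within 100 kb, with differences between -2.07 and -0.85, and Cebpb had 11.

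Cebpa, the gene of the factor that commits progenitors to the granulocyte and monocyte lineages, had 7 intergenic regions. The strongest, 32440 bp downstream (chr7:35150766-35152700), had 3.40 with inhibitor and 15.8 with vehicle (-1.93). A region 37015 bp downstream (chr7:35155217-35157399), about where a myeloid enhancer of mouse Cebpa is known, had 4.55 with inhibitor and 15.3 with vehicle (-1.56). Between them a region at 34973 bp had 5.45 with inhibitor and 12.1 with vehicle (-1.02). Irf8, the gene of a factor that favours monocytes over granulocytes, had 6 regions, from -1.99 to -0.89. The strongest, 50153 bp upstream (chr8:120684497-120687913), had 4.08 with inhibitor and 16.8 with vehicle (-1.81). The only one downstream, at 54657 bp (chr8:120792616-120793976), had 6.17 with inhibitor and 12.3 with vehicle (-0.89). None of the 13 regions of Cebpa and Irf8 was called with inhibitor, and at the intergenic share of 4.31% a count of 0 in so few regions says nothing particular to these genes.

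Stronger regions lay near stress and differentiation factors. A region 73654 bp upstream of Bach1, the gene of a heme-responsive repressor (chr16:87623342-87627259), had 6.23 with inhibitor and 30.7 with vehicle (-2.13), and the region over the Bach1 start had 4.68 and 19 (-1.81). A region 96109 bp upstream of Atf3, a stress response factor gene (chr1:191274835-191284049), had 6.42 with inhibitor and 27.1 with vehicle (-1.92), close to the start region at -1.85. Id2 encodes an inhibitor of E proteins, and its strongest region, 93751 bp upstream (chr12:25187707-25191979), was at -1.91 beside -1.93 at the start. A region 41606 bp upstream of Runx1, the gene of a hematopoietic factor (chr16:92866259-92869102) had 6.24 with inhibitor and 25.5 with vehicle (-1.87). The region 57706 bp upstream of Klf6, the gene of a zinc finger factor of macrophage inflammation (chr13:5801811-5805755), stood at -1.62 and the Klf6 start at -2.01. The regions near Bach1, Atf3 and Klf6 were called with inhibitor and those near Id2 and Runx1 were not. Gfi1, a repressor gene of neutrophil differentiation, had no intergenic region within 100 kb, and Myc and Csf1r have no start in the table used.

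Most genes of myeloid receptors and effectors also had one. Of 34 with a start in the table used, 27 (79.4%) had an intergenic region within 100 kb, against 12.4% of protein-coding genes. Among those with a region over their start, 20 of 26 did, against 18.1%. Neighbouring genes that share regions, such as S100a8 and S100a9 or Cxcl1, Cxcl2 and Cxcl3, were each counted, which raises this share. This list too was chosen with earlier results of these data known. The 65 regions had a median difference of -1.57 (4.0 with inhibitor, 13.0 with vehicle). Of them, 62 were at least 2-fold lower and 4 were called with inhibitor, beside shares of 93.7% and 4.31% over all intergenic regions. Ccr1, a chemokine receptor gene, had the strongest of them, 27118 bp downstream (chr9:123939706-123943442), with 8.04 with inhibitor and 28.2 with vehicle (-1.69), while the region over its start had 3.39 and 15.5 (-1.91). At Vegfa, the gene of the angiogenic growth factor, a region 41316 bp upstream (chr17:46072823-46074563) had 7.31 with inhibitor and 25.4 with vehicle (-1.67). At Ptgs2, the inducible cyclooxygenase gene, the region of Ptgs2os2 66537 bp downstream (chr1:150164554-150168583) was at -1.77, and the start region had 8.81 with inhibitor and 24.3 with vehicle (-1.37). Both were called with inhibitor.

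Of the remaining named effectors, Tlr2, a sensor of bacterial lipoproteins, had 6 regions, the strongest 22350 bp upstream (chr3:83862171-83865746) with 4.71 with inhibitor and 22.3 with vehicle (-2.03). Ltf, the gene of the granule protein lactoferrin, had a region 76188 bp downstream with 7.12 with inhibitor and 21.4 with vehicle (-1.47). A region 60832 bp downstream of Fcgr3, an Fc receptor gene, had 5.95 with inhibitor and 19.9 with vehicle (-1.59, but -1.15 by peak signal). Il1b, the gene of interleukin-1 beta, had 5 regions, all upstream between 32520 and 42815 bp, with differences between -1.57 and -1.01. The strongest of these (chr2:129412787-129415121) had 5.41 with inhibitor and 18 with vehicle. The single region near the chemokine gene Cxcl2, 49805 bp upstream (chr5:90853687-90854502), was weak but had a larger difference, 1.75 with inhibitor and 11.2 with vehicle (-2.14), beside -1.30 at the Cxcl2 start. That region also lies within 100 kb of Cxcl1 and Cxcl3.

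**Figure D5:**
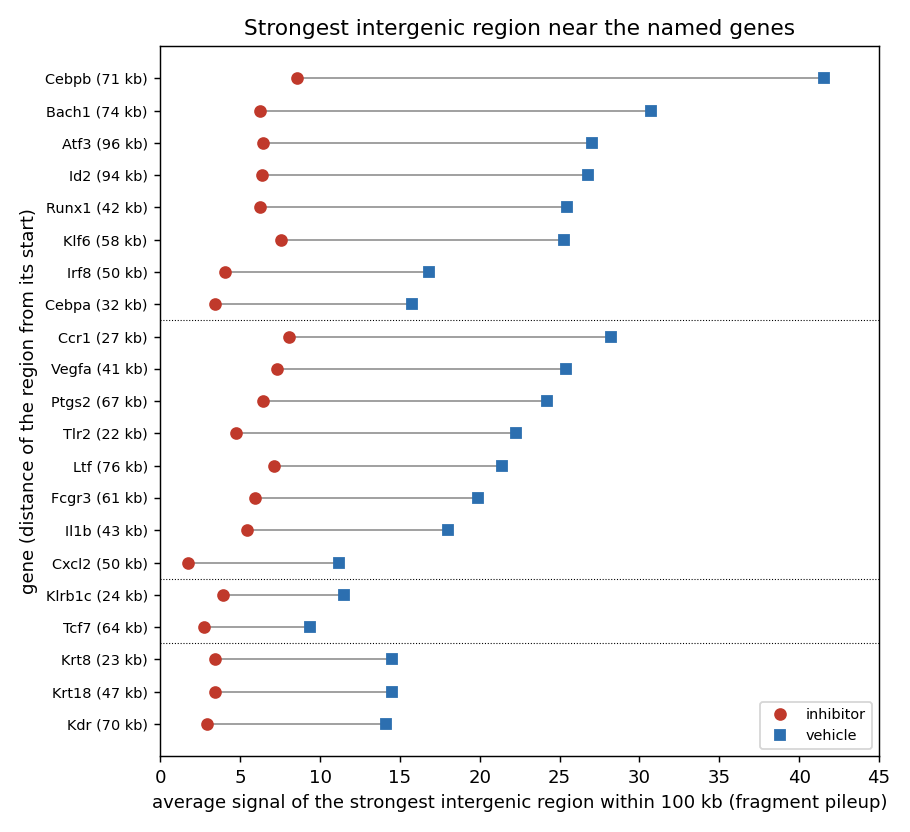
Average H3K27ac signal with inhibitor (circles) and vehicle (squares) of the strongest intergenic region within 100 kb of each named gene, with its distance from the gene start. From top to bottom the blocks hold myeloid transcription factors, myeloid receptors and effectors, lymphoid genes, and stromal, endothelial and epithelial genes, and each inhibitor value lies below its vehicle value.

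Over the 39 genes of the lists with both an intergenic region nearby and a region over the start, the strongest intergenic region was lower in log2 difference than the start region in 19, and the median of their difference was 0.018. Of 11 lymphoid genes with a start in the table used, 2 (18.2%) had an intergenic region within 100 kb, beside the 12.4% of all protein-coding genes. These were Tcf7 (2.73 with inhibitor, 9.36 with vehicle, -1.47) and Klrb1c (3.95 and 11.5, -1.34). Of 7 stromal, endothelial and epithelial genes, 3 (42.9%) had one. These were Kdr (2.89 and 14.2, -1.96) and the neighbours Krt8 and Krt18, which share a region (3.43 and 14.5, -1.81). Whether chromatin of other cells contributed to these regions was not tested.

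Among regions at or above the median vehicle signal, the 10 largest differences lay between -2.67 and -2.41. These 10 were 685 to 2665 bp long, and their peaks were 2 to 10 with inhibitor and 24 to 78 with vehicle. None was called with inhibitor, beside a share of 4.31% over all intergenic regions. They were picked by their difference, so their low inhibitor signal was part of the selection, and the count of calls shows nothing further. The lowest was the region of Gm40645, 29486 bp from Lilrb4a, which encodes an inhibitory receptor of myeloid cells. A region 48381 bp from Bmp2k (chr5:96948507-96949291) had 1.38 with inhibitor and 14.1 with vehicle (-2.67), and a region 34391 bp from Xbp1, the gene of a factor of the unfolded protein response (chr11:5485565-5486250), had 1.56 and 14.9 (-2.64). The order of these 3 depends on the measure, since by peak signal the differences were -2.73 near Lilrb4a, -2.64 near Bmp2k and -3.37 near Xbp1. A region 10436 bp from Ptpn18, a tyrosine phosphatase gene (chr1:34484220-34486475), was the strongest of the 10, with 4.33 with inhibitor and 27.4 with vehicle (-2.41). A region 106166 bp from Slc7a11, the gene of the cystine transporter (chr3:50605253-50607918), had 2.55 and 17.9 (-2.41).

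At the other end, 98 intergenic regions were called in both libraries (3.70%, against 9.86% of all regions). They were long, with a median of 3482 bp against 1212 bp for the 2533 called with vehicle alone, and strong, with medians of 6.43 with inhibitor and 23.0 with vehicle against 3.94 and 12.8. Their median difference was -1.72 and ran from -2.38 to -0.47. These regions were picked by their call with inhibitor, so their inhibitor signal, and through it their difference, was part of the selection. All intergenic regions in classes 8 and 9 of vehicle signal, which run from 18.5 to 21.7 and from 21.7 to 26.9, had medians of -1.82 and -1.87. Of the 98, 6 were less than 2-fold lower. The other 92 (93.9%) were at least 2-fold lower, against 93.7% of all intergenic regions and 93.4% of all regions. By inhibitor signal the strongest 12 included a region 17946 bp from H2-Q1 (chr17:35301394-35302579), in the MHC class I cluster. It had 9.32 with inhibitor and 16.3 with vehicle (-0.75). Near-identical copies in that cluster can share reads, and whether this affected the region was not tested. A region 32168 bp from Tcte2 (chr17:13682415-13684268) had 8.35 with inhibitor and 16.4 with vehicle (-0.90). A region 12705 bp from Fgd2, which encodes an exchange factor for CDC42 (chr17:29392240-29399344), had 9.24 and 32.1 (-1.69), and one 13903 bp from Prex1, an exchange factor for RAC in neutrophils (chr2:166548895-166552442), had 8.92 and 32.6 (-1.76). A region 48974 bp from Cdkn2aipnl (chr11:51915222-51918657) had 8.84 and 25.1 (-1.41). A region in the current span of Ptges, the prostaglandin E synthase gene (chr2:30928285-30930452), had 8.32 and 33.5 (-1.89).

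The 15 intergenic regions with a higher signal with inhibitor were all called with inhibitor alone. These 15 were 262 to 435 bp long. Their signals were 10.3 to 12.4 with inhibitor and 1.33 to 8.11 with vehicle, and their peaks with inhibitor were 12 to 19. The largest difference, 2.35, was at a region 76438 bp from Mmd (chr11:90172533-90172838) with 10.9 with inhibitor and 1.33 with vehicle, followed by 1.90 at a region 47797 bp from Sox9 (11.5 and 2.36). Of the 2647 intergenic regions, 10 were at least 2-fold higher, against 31 of all 22399 regions (0.138%). In all, 16 of the 2647 intergenic regions were called with inhibitor alone, against 89 of all 22399 regions (0.397%). The remaining one, nearest to Gm38510 (chr1:85147519-85147737), was 218 bp long and had a lower signal with inhibitor, 13.4 against 20.3 with vehicle (-0.56). A region called with inhibitor alone entered the table through that call, so its signal with inhibitor was part of its selection.

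Finally, 2 intergenic regions contain a microRNA hairpin of the RefSeq table, shown because they are transcribed units in otherwise unassigned sequence. The mature sequences are given with the seed, bases 2 to 8, in capitals, and the seeds differ.
mmu-miR-8096: gGGCACGGuagcugaagagu
mmu-miR-6367: uCCCUGAGacccugguucagga
The region of Mir8096 (chr1:85748995-85752744) had 5.19 with inhibitor and 21.1 with vehicle (-1.84). The region of Mir6367 (chr16:91523639-91528122), 13116 bp from the interferon receptor gene Ifnar1, had 4.49 with inhibitor and 17.0 with vehicle (-1.71). Neither was called with inhibitor, and their vehicle peaks of 49 and 43 stood against 15 and 13 with inhibitor.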

How the data were processed

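H3K27ac ChIP-seq was analysed in 1 inhibitor and 1 vehicle library. Reads were paired and 150 bp long, per the labels' protocols. The submitters' processing notes name SICER and BWA and the builds hg19 and dm3, and the sources used here give neither versions nor settings. The authors deposited, per region, an average and a peak signal (fragment pileup), and the depth behind a value is unknown. How the average was formed is not stated. Multiplied by the number of 32 bp bins, or 1 bin fewer, it was whole within rounding for 94.9% of intergenic regions with vehicle and 48.3% with inhibitor, and none lay between 0 and 1. Whether empty bins were left out of the average, which would raise weak values, was not tested. Coordinates are printed as deposited. Of 8928 regions inside a single gene, 99.8% overlapped that gene in GRCm38, which is used here and is not hg19. Gene spans, starts and sequences are RefSeq's (GRCm38.p6). Distances are to a region's middle for starts and to its edge for gene spans.

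No test was run, with 1 library per treatment. Differences use a pseudocount of 1. Computation used Python 3.11.15, pandas 2.3.3 and numpy 2.4.6, and the class matching was tested on simulated data. The regions, gene lists and rules were chosen with earlier results of these data known. Regions named are the 10 strongest, the 10 largest differences at or above the median vehicle signal, the 10 highest differences, the 12 strongest with inhibitor among those called in both, 5 stretches, and the strongest region near the first 6 genes of each list and near 10 fixed genes. Examples were taken from these. Fos, and further regions near a named gene, were chosen after their values were seen. Alternatives were other pseudocounts, peak signal, filters, recentring and other classes. The input was not analysed here. Of the strongest regions, 1 is not reported here.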

Additional observations from a re-analysis of the deposited data

How the results depend on the processing

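The median difference of intergenic regions stayed below 0 in every alternative but recentring on the median of all regions (-1.61), which gave 0.018. It was -1.55 with peak signal, -1.82 without a pseudocount, -1.61 without weak regions and -1.64 without regions under 1000 bp. The share at least 2-fold lower was 88.1%, 96.1%, 92.6% and 97.2% in these 4, and 0.113% after recentring. The gap to all other regions was 0.074 with peak signal and 0.039 without weak regions, and it reversed to -0.0092 without a pseudocount. The gap within classes of vehicle signal was -0.13 without a pseudocount, -0.081 without weak regions and -0.076 in classes of mean signal. It reversed to 0.00023 in classes of length and to 0.088 in classes of inhibitor signal. The share called with inhibitor was 6.45% without weak regions and 5.60% without short ones. The cause of these shifts was not tested. Leaving out chromosome X, regions called with inhibitor alone or regions within 10 kb of any RefSeq gene (1117 remained) kept the median at -1.59 and the share called with inhibitor, where it was recomputed, to 4.30% and 3.85%. The classes of inhibitor signal, of signal with length and of vehicle peak were chosen after seeing the data. No paired analysis was possible because there was 1 library per treatment, and for the same reason no replicate could be left out. Depth is unknown, so the noise of weak inhibitor values, with peaks of a few fragments, cannot be given.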

Other observations

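Some genes outside the lists were surrounded by many intergenic regions, and they were picked after their counts were seen. Zfp217 had 13 within 100 kb of its start (median difference -1.43, 3.90 with inhibitor and 12 with vehicle). Irf2bp2, which encodes a partner of interferon regulatory factor 2, had 12 (-1.60, 4.71 and 14.2), and its neighbour Tomm20 had 11. The neighbours Papss1 and Sgms2 had 12 each (-1.33, 4.44 and 12.9). Tnfrsf1a, the gene of a TNF receptor, had 12 (-1.35, 4.39 and 12.4), and Kdm7a, a histone demethylase gene, had 11 (-1.65, 3.79 and 13.6). The stretch with the most regions held 12 over 41904 bp (chr15:59706006-59747910), 48907 bp from Trib1, which encodes a pseudokinase that promotes degradation of C/EBP-alpha. Its mean signal per base was 5.33 with inhibitor and 15.2 with vehicle (-1.35), its regions ran from -1.72 to -0.99, and 1 was called with inhibitor.

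The share of regions that are intergenic differed by chromosome. It was 19.2% on chromosome 13 and 18.9% on chromosome 10, and 7.58% on chromosome 17, 8.20% on chromosome 11 and 5.50% on chromosome X. Intergenic medians of the 19 autosomes lay between -1.67 (chromosome 10) and -1.50 (chromosome 11), and the 18 regions on chromosome X had -1.47. The intergenic median was below that of the other regions on 5 of the 19 autosomes. No explanation was tested for these values.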
